A study of Mus musculus with 8 samples.

Results

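The 4 Hox gene clusters of the mouse were examined in maps of GLI1 and GLI2 binding made by anti-FLAG ChIP-seq. The clusters were taken as fixed windows of the mm9 genome, chosen by position and not by any measured value: HoxA on chromosome 6 from 52050000 to 52260000, HoxB on chromosome 11 from 96040000 to 96250000, HoxC on chromosome 15 from 102700000 to 102900000 and HoxD on chromosome 2 from 74450000 to 74660000. Together they span 830 kb and are meant to hold 38 listed genes, 10 each in HoxA (Hoxa2 to Hoxa13) and HoxB (Hoxb1 to Hoxb13) and 9 each in HoxC (Hoxc4 to Hoxc13) and HoxD (Hoxd1 to Hoxd13). Of the 173807 peaks in the 4 deposited peak lists, 52 overlapped a window. All libraries came from the female mouse embryonic stem cell line F1-2.1, which carries the Tet-on transactivator rtTA and a stable, tetracycline-responsive transgene for either GLI1-3xFLAG or GLI2-3xFLAG. Cells of both groups were grown with LIF on irradiated feeder fibroblasts and received 1 µg/mL doxycycline and 100 nM SAG, an activator of Smoothened, for 72 hours, and they are called day 0. Each factor had 2 ChIP libraries, which the labels call biological replicates, and 2 input libraries. Both factors were therefore seen only as induced transgenes with the Hedgehog pathway switched on. The labels do not say whether each transgenic line is a single clone and no list from cells lacking the FLAG transgenes was used here. A peak list holds no expression values, so the labelled cell type was not checked against markers.

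Hox genes encode homeodomain transcription factors that give cells their position along the head-to-tail axis. Within a cluster the genes lie in the order in which they act along that axis, and in embryonic stem cells the clusters are known as domains silenced by Polycomb proteins. GLI1 and GLI2 are the zinc-finger proteins through which Hedgehog signals reach the genome, and the pathway acts alongside Hox genes in patterning the limb bud and the neural tube. GLI2 is the main activator at the start of a Hedgehog response, and GLI1 is itself a target gene that adds to it.

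The letters under the peaks were not read, since no genome of the peaks' build was at hand, and single Hox genes were not placed among the peaks for the same reason. RefSeq promoters of GRCm38.p6 (250 bases before to 50 after a start site) were searched instead for the sequence that GLI proteins are known to prefer, as a description of the genes and not of the peaks. Of the 38 genes, 22 matched with 24 promoters. HoxB was represented by Hoxb1, Hoxb4 and Hoxb8 only, and HoxC by Hoxc4 only. The GLI consensus, searched on both strands, reads as follows.

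GLI consensus: GACCACCCA

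All 9 letters occurred in 0 of the 24 Hox promoters and in 0.253% of the 32851 promoters in the table. With 8 of the 9 letters or more, 1 Hox promoter matched, that of Hoxa7, against 6.74% of all promoters. This says only that these letters are not in these promoter windows.

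Hox windows carried about as many peaks as the rest of their chromosomes. GLI1 had 15 Hox peaks in replicate 1 and 13 in replicate 2, and GLI2 had 10 in replicate 1 and 14 in replicate 2. They made up 0.0352% (95% exact interval 0.0197 to 0.0580) and 0.0233% (0.0124 to 0.0399) of the GLI1 lists, and 0.0377% (0.0181 to 0.0694) and 0.0286% (0.0156 to 0.0480) of the GLI2 lists. The windows make up 0.0322% of the span that holds peaks, a value inside all 4 intervals. These intervals cover the counting of peaks only; read numbers were not analysed here, so the depth behind a peak is unknown.

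Each window was next set beside its own chromosome, cut into non-overlapping tiles of the same length. The 15 Hox peaks of GLI1 replicate 1 compared with 12 for the summed medians of the tiles, a ratio of 1.25. The ratio was 0.765 in GLI1 replicate 2, 1.43 in GLI2 replicate 1 and 1 in GLI2 replicate 2. The mean log2 ratio was 0.11 ± 0.39 (SD, n = 4 lists), a geometric mean of 1.08-fold, which did not differ from 1 by more than the lists did among themselves (two-sided exact sign permutation p = 0.75, where 4 lists allow no p below 0.125). With GLI2 replicate 2 at a ratio of 1, changing its sign has no effect, so these values could not reach even that limit. Of the 16 pairs of a window and a list, 8 lay above the median tile, 3 on it and 5 below it, and all 16 lay between the 5th and the 95th percentile of the tiles. Tiles gave a median of 1 to 5 peaks, so a single peak more or less moves a ratio by a large step.

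**Figure D1:**
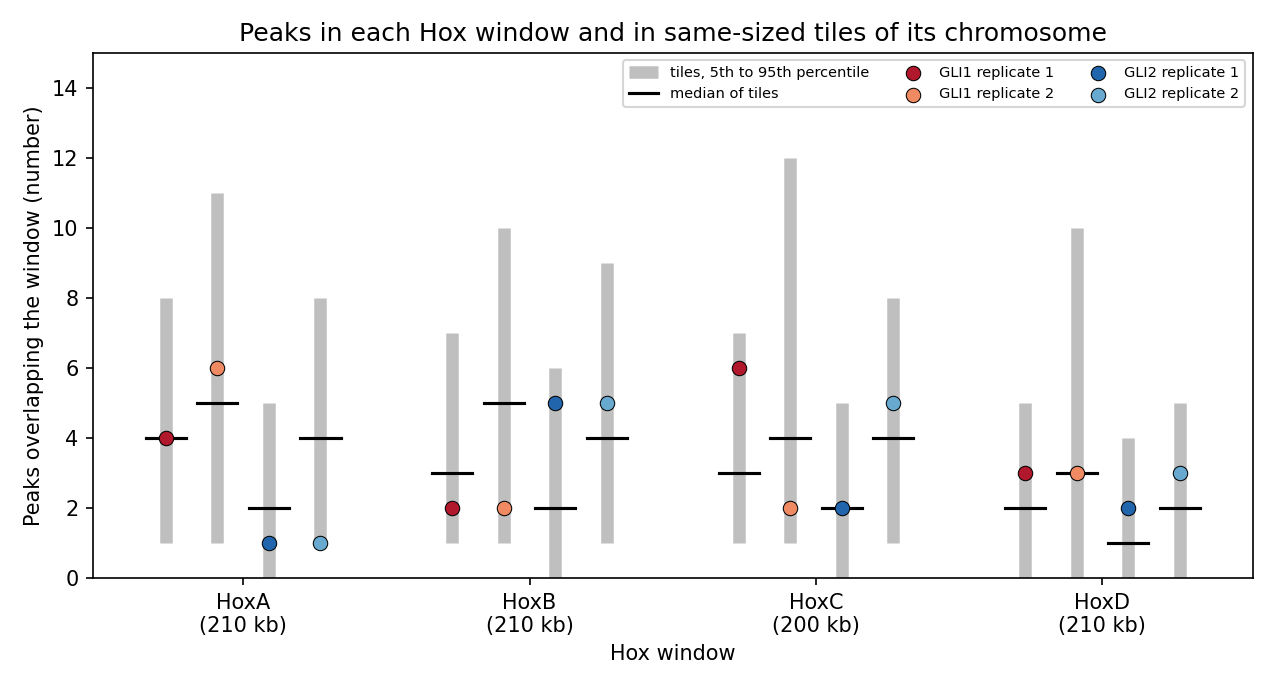
Number of peaks overlapping each Hox window (points, 1 per list) beside same-sized tiles of the same chromosome (grey bars, 5th to 95th percentile; black lines, median). All 16 points lie within the grey bars, and HoxA and HoxB are the windows in which the points of GLI1 and GLI2 do not overlap.

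HoxA, which runs from Hoxa2, a patterning gene of the hindbrain and branchial arches, to Hoxa13, needed for digits and the genital tract, had more GLI1 than GLI2 peaks. GLI1 had 4 peaks in replicate 1 and 6 in replicate 2, and GLI2 had 1 in each replicate. Both GLI1 lists were thus above both GLI2 lists, at means of 5 ± 1.41 and 1 ± 0 (SD, n = 2). The difference of 4 peaks was 3 within replicate 1 and 5 within replicate 2, and its two-sided exact permutation p of 0.333 is the smallest that 2 lists against 2 can give (0.833 adjusted by Benjamini-Hochberg over 5 comparisons). Such an order is common on chromosome 6, where 29.5% of 696 tiles had both GLI1 lists above both GLI2 lists. Counted per 10000 peaks of the list, HoxA still had more GLI1 peaks, at 1.01 ± 0.0977 against 0.291 ± 0.122 (SD, n = 2), an order shown by 24.3% of tiles. The GLI1 counts were ordinary for the chromosome, with fewer peaks in 43.8% of tiles for replicate 1 and 59.8% for replicate 2. The GLI2 counts were on the low side, with fewer peaks in 12.5% and 2.30% of tiles. The labels give GLI1 and GLI2 lists different cutoffs. GLI1 replicate 1 peaks of HoxA with scores of 43.3 and 46.6 lay below 50.0, the lowest score in the GLI2 replicate 1 list. With a score of at least 50 required in the replicate 1 lists, the HoxA difference was 3 peaks and the factors still did not overlap. Replicate 2 lists could not be set alike, so factor and cutoff are not separated there.

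GLI2 peaks of HoxA were found only near the window's start, beginning at 14.4 kb (replicate 1) and 39.2 kb (replicate 2). GLI1 replicate 1 had peaks beginning at 2.4, 51.2, 72.4 and 150.8 kb, and GLI1 replicate 2 at 17.6, 144, 148.4, 150.6, 168 and 207.2 kb. A stretch of 70 kb, from 52124001 to 52194000, held no peak of any list. Of the chromosome 6 tiles, 10.5% had a longer empty stretch. The single HoxA place with peaks of 2 lists was a GLI1 region from 52200601 to 52202000, with peaks of 1200 bp in replicate 1 (score 46.6, close to the list's median) and 1400 bp in replicate 2. The widest HoxA peaks, at 1800 bp, included that of GLI2 replicate 1 from 52064401 to 52066200, which also had the highest HoxA score of its list, 59.4. The highest GLI1 replicate 1 score was 57.8, at the peak from 52122401 to 52124000.

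HoxB had the opposite order. This cluster runs from Hoxb13, active at the tail end of the embryo, to Hoxb1, which sets the identity of a hindbrain segment. GLI1 had 2 peaks in each replicate and GLI2 had 5 in each. The difference was -3 peaks (GLI1 minus GLI2) within both replicate numbers, with a two-sided exact permutation p of 0.333, again the smallest possible (0.833 adjusted by Benjamini-Hochberg). On chromosome 11, 7.09% of 564 tiles had both GLI2 lists above both GLI1 lists. The lists differ in length, and per 10000 peaks of the list that share was 24.5%. On this scale HoxB had 0.414 ± 0.0780 GLI1 and 1.45 ± 0.611 GLI2 peaks (SD, n = 2). The HoxB order was lost when the window was widened by 50 kb on each side, where the difference was -0.5, and with the better-scored 50% of the replicate 1 lists, where it was -1.5. The HoxA order held in all 8 settings compared, those that leave out a list aside. Tiles with fewer peaks made up 15.8% and 12.8% for GLI1 replicates 1 and 2, and 84.8% and 56.6% for GLI2.

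HoxB held 2 of the places seen in more than a single list. The region from 96063201 to 96064400 had a GLI2 peak in both replicates, of 1200 and 1000 bp. Its replicate 1 score of 76.5 was the highest of the GLI2 replicate 1 Hox peaks, above 91.5% of that list. The region from 96043801 to 96045000, near the window's start, had a peak of GLI1 replicate 2 and of GLI2 replicate 2, lists whose labels share a setting, called s, of 20. The widest HoxB peak was 1800 bp wide, from 96229401 to 96231200 in GLI1 replicate 1, with a score of 71.5, above 95.9% of its list. It had no peak of another list over it.

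HoxC, with Hoxc13, a gene of hair and nail formation, at one end and Hoxc4 at the other, differed as much between replicates as between factors. GLI1 had 6 peaks in replicate 1 and 2 in replicate 2, and GLI2 had 2 in replicate 1 and 5 in replicate 2. The groups overlapped (difference 0.5 peaks, two-sided exact permutation p = 1, adjusted 1), and the difference was 4 within replicate 1 and -3 within replicate 2. HoxC in GLI1 replicate 1 was dense for its chromosome, with fewer peaks in 85.4% of tiles, much as HoxB in GLI2 replicate 1. It was also the cluster with the most merged regions, 14, yet a single one had peaks of 2 lists, from 102861401 to 102863000. That region had peaks of GLI1 replicate 2 (1600 bp) and GLI2 replicate 2 (1200 bp). The highest HoxC scores were 61.2, at 102877601 to 102878800 in GLI1 replicate 1, and 51.8, at 102734401 to 102735800 in GLI2 replicate 1. The widest of its peaks, at 1600 bp, numbered 3, and the first began at 102789201 (GLI1 replicate 1).

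HoxD, whose Hoxd9 to Hoxd13 end patterns the limb under the influence of Hedgehog signals, had 3 GLI1 peaks in each replicate and 2 and 3 GLI2 peaks in replicates 1 and 2. The factors overlapped here as well (difference 0.5 peaks, two-sided exact permutation p = 1, adjusted 1; 1 within replicate 1 and 0 within replicate 2). No list was below its median tile, and the mean ratio of 1.5 ± 0.408 (SD, n = 4) was the highest of the 4 windows with the edges as given. It was 0.9 with windows and tiles widened by 50 kb on each side, below HoxB and HoxC, and 2 with them narrowed by 25 kb. With the edges as given, HoxB followed with 1.20 ± 0.934, HoxC with 1.19 ± 0.625 and HoxA with 0.738 ± 0.439. The SDs of neighbours in this order overlapped. HoxD counts were ordinary for chromosome 2. Tiles with fewer peaks made up 64.0% and 36.2% for GLI1 replicates 1 and 2, and 53.8% and 61.9% for GLI2. Against the mean of the tiles, an alternative chosen after seeing the data, the HoxD ratio was 1.19.

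HoxD held the only Hox place with a peak in 3 lists, from 74628001 to 74630000. It was 1 of 46 merged Hox regions (2.17%), close to the 2.49% of merged regions with 3 lists over the genome. The GLI1 replicate 1 peak there was 2000 bp wide, the widest of all Hox peaks. Its score of 86.9 was the highest of the GLI1 replicate 1 Hox peaks, above 98.9% of that list. GLI1 replicate 2 had a peak of 1600 bp from 74628201 to 74629800, and GLI2 replicate 1 had one of 1400 bp from 74628201 to 74629600 with a score of 55.4, above 33.6% of its list. The GLI2 replicate 2 list had no peak over it, though one lay from 74619601 to 74620800. The 10 kb of the window from 170 to 180 kb held 5 peaks from all 4 lists, and no other of the 83 Hox bins held peaks of more than 2 lists. This bin was picked after its values were seen. Bins of 10 kb with all 4 lists made up 34 of 17868 on chromosome 2 (0.190%). The highest scored GLI2 replicate 1 peak of HoxD, at 57.4, lay elsewhere, from 74558001 to 74559600.

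**Figure D2:**
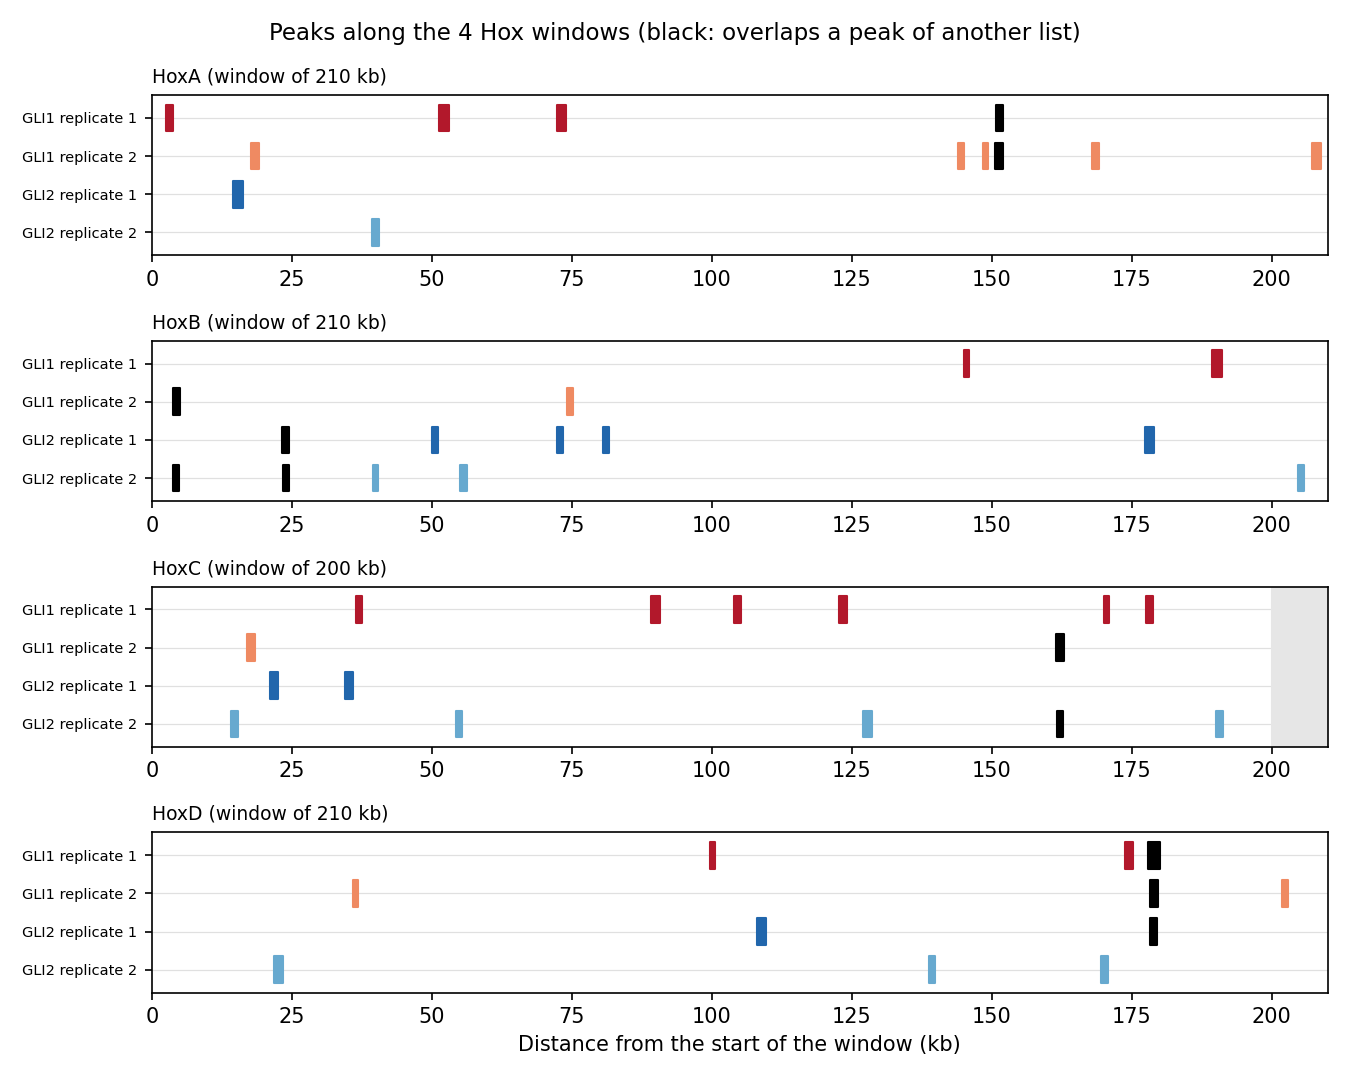
Peaks of the 4 lists along each Hox window, in kb from its start; bars are drawn to the width of the peak, and black bars overlap a peak of another list. HoxA shows the 70 kb stretch without peaks between 74 and 144 kb, and HoxD shows the place at 178 kb where peaks of 3 lists coincide.

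Few Hox peaks recurred between replicates of the same factor. For GLI1, 2 of the 15 replicate 1 peaks (13.3%, 95% exact interval 1.66 to 40.5) overlapped a replicate 2 peak, against 20.8% of the whole list. Of the 13 replicate 2 peaks, 2 (15.4%, 1.92 to 45.4) overlapped a replicate 1 peak, against 16.0%. For GLI2, 1 of 10 replicate 1 peaks (10.0%, 0.253 to 44.5) recurred, against 34.9%, and 1 of 14 replicate 2 peaks (7.14%, 0.181 to 33.9), against 18.9%. All 4 shares were below that of their list, but each interval held the list's share, so no difference in recurrence was detectable with 10 to 15 peaks per list. The 4 shares are not independent. Both lists of a factor count the same regions, in HoxA and HoxD for GLI1 and in HoxB for GLI2.

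Sharing between the factors was similarly sparse. Of GLI1 Hox peaks, 1 of 15 in replicate 1 (6.67%, 95% exact interval 0.169 to 31.9) and 3 of 13 in replicate 2 (23.1%, 5.04 to 53.8) overlapped a peak of either GLI2 list, against 15.1% and 16.5% of the whole lists. Of GLI2 Hox peaks, 1 of 10 in replicate 1 (10.0%, 0.253 to 44.5) and 2 of 14 in replicate 2 (14.3%, 1.78 to 42.8) overlapped a GLI1 peak, against 21.0% and 21.2%. Merging the lists left 46 Hox regions, of which 5 (10.9%, 3.62 to 23.6) had a peak in 2 lists or more, against 18.9% of the 142067 merged regions of the genome. No Hox region had a peak in all 4 lists, against 0.421% of those of the genome; 0 of 46 allows a share of up to 6.52%, taking 3 counts as the limit for a count of 0. The 5 regions are the ones named above. They were 1 with both GLI1 lists, 1 with both GLI2 lists, 2 with both replicate 2 lists and the HoxD region with 3 lists. Over the genome, these pairs of lists alone made up 4.70% (both GLI1), 4.74% (both GLI2) and 3.42% (both replicate 2) of merged regions. The combination of lists at the HoxD region made up 0.319%.

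**Figure D3:**
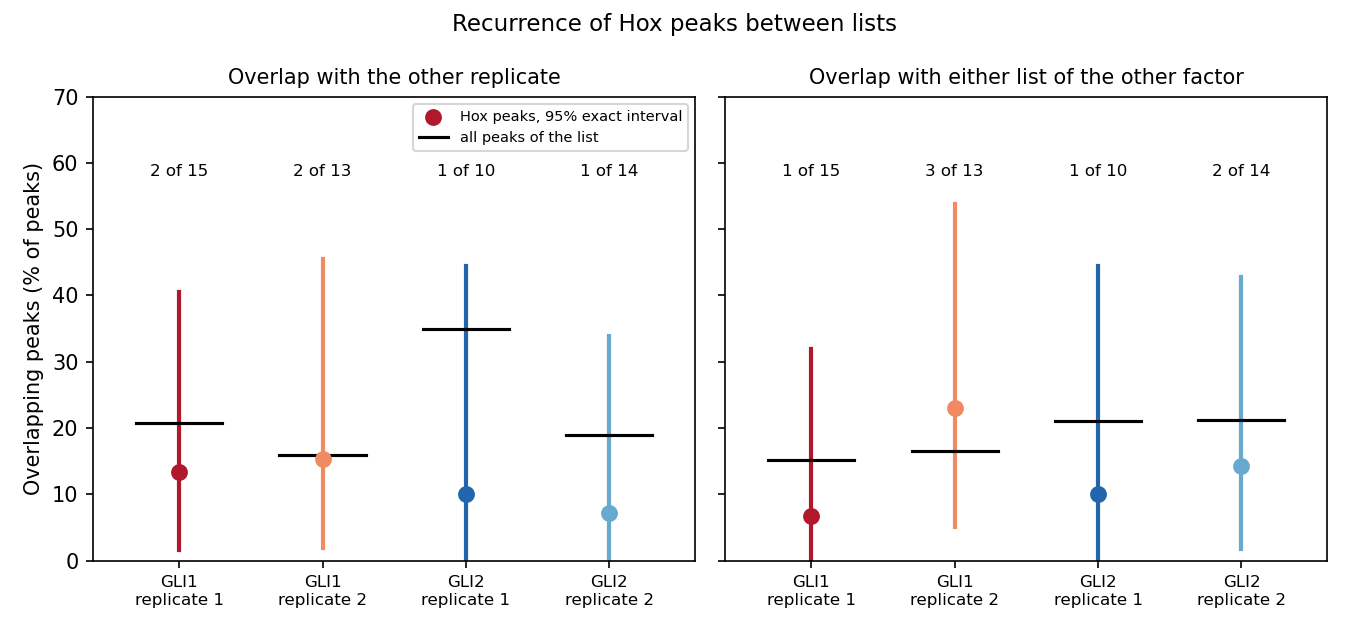
Share of Hox peaks that overlap a peak of the other replicate (left) or of either list of the other factor (right), in percent, with 95% exact intervals and the number of peaks; black lines give the share over all peaks of the list. The black line lies inside the interval in all 8 cases.

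Hox peaks were close to the other peaks of their lists in width and score. Their median width was 1400 bp in GLI1 replicate 1, equal to that of the list, 1200 bp in GLI1 replicate 2 and GLI2 replicate 2, likewise equal, and 1400 bp in GLI2 replicate 1, where the list had 1200 bp. None of the 52 was wider than 2000 bp, while 2.53 to 4.75% of the peaks of a list were. Scores are the authors' own, on a scale that no label or header explains, and they are usable in replicate 1 only. GLI1 replicate 1 Hox scores ran from 40.5 to 86.9 with a median of 50.0, and 9 of 15 exceeded the list's median of 46.9. GLI2 replicate 1 Hox scores ran from 50.4 to 76.5 with a median of 55.5, and 3 of 10 exceeded the list's median of 58.8. Scores above the 90th percentile of the list were found for 2 GLI1 peaks, in HoxB and HoxD, and for 1 GLI2 peak, in HoxB.

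**Figure D4:**
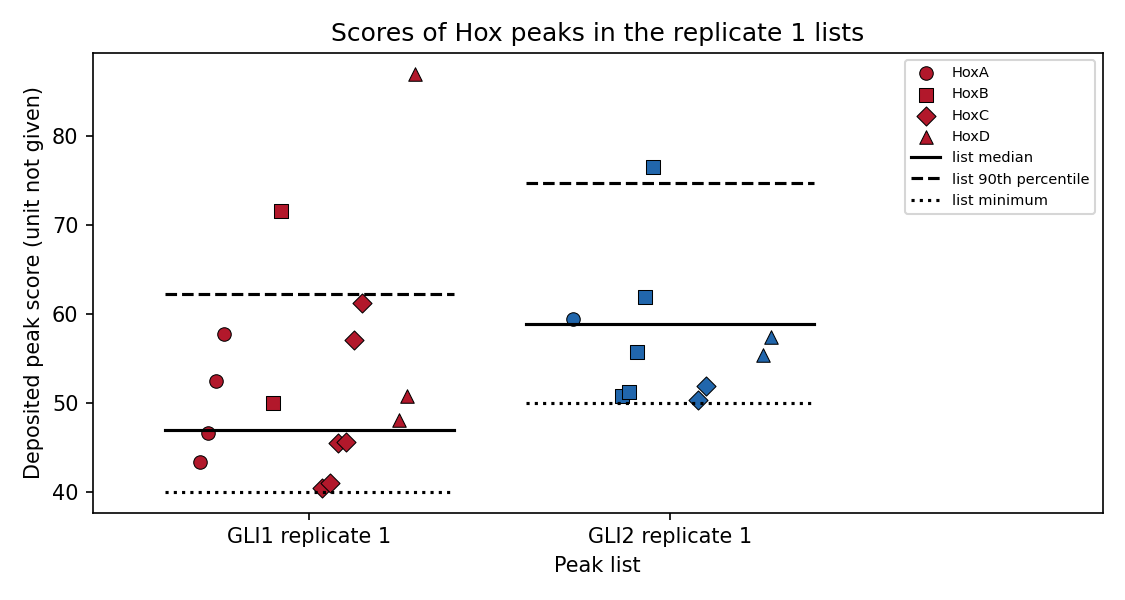
Deposited scores of the Hox peaks of the replicate 1 lists (symbols by window), with the minimum, median and 90th percentile of each whole list as lines. Scores of GLI1 begin near 40 and those of GLI2 near 50, so levels are read within a list only; the highest GLI1 point is the HoxD peak at 86.9.

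Over all windows GLI1 and GLI2 had 14 ± 1.41 and 12 ± 2.83 peaks (SD, n = 2), so that the 2 GLI2 lists lay further apart than the factors did (p = 0.667 by a two-sided exact permutation test, adjusted 1). The difference was 5 within replicate 1 and -1 within replicate 2. Requiring a score of 50 or more in the replicate 1 lists turned it to -2, since GLI1 replicate 1 kept 7 of its 15 Hox peaks and GLI2 replicate 1 kept all 10. Over the whole lists, 37.2% of GLI1 replicate 1 peaks and 100% of GLI2 replicate 1 peaks had such a score. Per 10000 peaks of the list the difference was -0.392. GLI1 lists carry 1e-4 and GLI2 lists 1e-5 as the cutoff in their labels. The lowest scores were 40.0 in the GLI1 replicate 1 list and 50.0 in the GLI2 replicate 1 list. A score of at least 50 thus gave both replicate 1 lists the same lower limit. Replicate 2 lists have no usable scores to set alike. In the counts as deposited, the factor and the cutoff therefore cannot be told apart.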

How the data were processed

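The series held 8 samples, which titles divide by factor and by ChIP or input into 4 groups of 2 replicates; the inputs were not analysed here. The submitters' processing notes name CASAVA 1.7, BWA and the genome build mm9. Which program called the peaks is not given in the sources at hand. The authors deposited 1 headerless peak list per ChIP library, with start, end and a score per peak. Per the labels, lists were named with a setting s of 50 in replicate 1 and 20 in replicate 2 and with cutoffs of 1e-4 (GLI1) and 1e-5 (GLI2), so they were not made alike. Peak ends fell on a 200 bp grid and no peak was under 1000 bp. The score was 0 for 55722 GLI1 and 48898 GLI2 replicate 2 peaks, including every replicate 2 Hox peak, and was not used there.

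A peak belonged to a window or met another peak by an overlap of at least 1 bp. Every whole tile of a window's length, laid outwards from it over the span with peaks, served as reference in place of randomly drawn windows. GLI1 and GLI2 were compared by exact permutation of lists, and shares carry exact (Clopper-Pearson) 95% intervals. Regions named are all those with 2 or more lists, and per window the widest and highest scored peaks. Gene names and promoters came from RefSeq tables of GRCm38.p6, whose coordinates were not used. The windows and all choices were made with earlier results of these data known. Counting code was tested on simulated lists. Python 3.11.15, numpy 2.4.6, pandas 2.3.3, scipy 1.17.1 and matplotlib 3.10.9 were used.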

Additional observations from a re-analysis of the deposited data

How the results depend on the processing

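Few peaks per window set the main limit: most differences rest on 1 to 5 peaks. GLI1 minus GLI2 kept its direction in HoxA and HoxB under every alternative run. Leaving out a list gave 3 to 5 peaks in HoxA, -3 each time in HoxB, -1.5 to 2.5 in HoxC (-1.5 without GLI1 replicate 1, -1 without GLI2 replicate 1), 0 to 1 in HoxD and 0 to 4 over all windows, with 0 in the last 2 without GLI2 replicate 1. A score of at least 50 in replicate 1 turned the difference to -2 over all windows and -1.5 in HoxC and made it 0 in HoxD. HoxC went to -0.5 with the better-scored 50% and to 0 in windows widened by 50 kb. Per 10000 peaks of the list, an alternative chosen after seeing the data, it was -0.392 over all windows, -0.00517 in HoxC and -0.0629 in HoxD. With the replicate block the differences of 4 in HoxA and -3 in HoxB had an exact permutation p of 0.5, the smallest that pairing 2 replicate numbers allows. The numbers carry no stated shared source, and deviations of same-numbered lists correlated with r = 0.117 over 12262 tiles.

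The 1.08-fold ratio to tiles fell below 1 with tiles within 5 Mb (0.881), windows narrowed by 25 kb (0.911) and the mean over tiles (0.961, chosen after seeing the data), and ranged from 0.985, without GLI2 replicate 1, to 1.21 when a list was left out. Recurrence stayed within its intervals under all 5 alternatives, but the intervals are too wide for that to show stability. It ranged from 9.09 to 14.3% for GLI1 replicate 1 and from 7.69 to 23.1% for GLI1 replicate 2. Under the same alternatives the whole GLI1 lists had 17.6 to 27.8% and 7.69 to 21.7%. For GLI2, recurrence of Hox peaks ranged from 10.0 to 11.8% in replicate 1 and from 7.14 to 12.5% in replicate 2. The whole GLI2 lists had 31.0 to 39.5% and 16.8 to 21.9%. Recurrence compares a single pair of lists, so none could be left out. With a list of the other factor left out, sharing ranged from 0 to 6.67% for GLI1 replicate 1 and 7.69 to 15.4% for GLI1 replicate 2. It ranged from 0 to 14.3% for GLI2 replicate 2 and was 10.0% for GLI2 replicate 1 either way. The whole lists then had 8.16 to 10.1% and 5.53 to 13.9% for GLI1 replicates 1 and 2. For GLI2 they had 11.5 to 13.1% and 8.81 to 15.8%. With peaks widened by 1000 bp, sharing of Hox peaks rose to 13.3% for GLI1 replicate 1 and 46.2% for GLI1 replicate 2. For GLI2 it rose to 40.0% in replicate 1 and 21.4% in replicate 2. The whole lists had 23.4, 24.3, 31.6 and 30.8%, in the same order.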

Other observations

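Flanks as long as the windows were looked at after the windows' values were known, and the order of the factors seen in HoxA and HoxB was repeated in 2 of their 4 flanks. Following HoxA, GLI1 had 7 peaks in each replicate, while GLI2 had 0 in replicate 1 and 1 in replicate 2, an order that 29.5% of chromosome 6 tiles showed by count and 24.3% per 10000 peaks of the list. Preceding HoxA, GLI1 had 3 and 1 peaks and GLI2 had 1 in each. Preceding HoxB, on the side of Hoxb13, GLI2 had 13 and 12 peaks in replicates 1 and 2 against 6 in each GLI1 list, an order that 7.09% of chromosome 11 tiles showed by count and 24.5% per 10000 peaks of the list. Following HoxB the order was not repeated, with 3 and 6 GLI2 peaks against 8 and 7 GLI1 peaks. HoxC and HoxD flanks held 1 to 8 peaks per list. Over all flanks the lists had 32 and 40 GLI1 peaks and 26 and 27 GLI2 peaks.

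Of the 52 Hox peaks, 41 (78.8%) overlapped no peak of another list, against 66.3% of all peaks. Another list's peak lay within 1000 bp of 4 of them (9.76%), within 5000 bp of 17 (41.5%) and within 10000 bp of 23 (56.1%). Over the whole lists the corresponding shares of peaks without overlap were 8.76%, 38.2% and 60.9%. Close pairs included GLI1 replicate 2 and GLI2 replicate 1 peaks of HoxB 800 bp apart, beginning at 96114201 and 96112401, and GLI1 replicate 1 and GLI2 replicate 1 peaks of HoxC 600 bp apart, beginning at 102736401 and 102734401.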
